A study of Rattus norvegicus with 6 samples.

Results

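Pre-mRNA splicing is set by RNA-binding proteins that mark which exons are kept. SR proteins (the Srsf and Tra2 genes) mostly promote the use of an exon, heterogeneous nuclear ribonucleoproteins (Hnrnp) and polypyrimidine tract binding proteins (Ptbp) often repress it, and the Clk kinases phosphorylate the arginine- and serine-rich tails of SR proteins. Cyclin L proteins carry such a tail themselves and partner with the kinase Cdk11 in splicing. In neurons the Rbfox, Nova, Celf, Mbnl, neuronal Elavl and Khdrbs proteins add tissue-specific exon choice, and several of them also act on the stability or transport of mRNA. The genes described here are those whose symbol in the array's annotation belongs to 1 of these 12 families, with Rbfox limited to Rbfox1 and Rbfox2. This gave 112 probe sets of 56 genes, out of 31099 probe sets and 14218 genes with 1 symbol. The families and the direction of the comparison were chosen with the log2 ratios of these arrays in view, so every difference between gabazine-treated and untreated cultures is given as a description, with no test.

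Slices of hippocampus from Wistar rat pups, at postnatal day 4 by the labels, were grown as organotypic cultures, and RNA was measured on 6 Affymetrix RAT2302 arrays. The 3 gabazine samples had 20 µM gabazine, an antagonist of the GABA-A receptor, for 90 min, and the 3 control samples were untreated. In each of the 3 replicas the cultures of a pair of littermates were divided between both conditions, so the arrays of 1 replica form a pair. The whole slice was used, so more RNA per cell and more cells of a type cannot be told apart.

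The values are log2 intensities after Robust Multi-array Average (RMA), and each log2 ratio is gabazine minus control within a pair. The array medians were 8.63 to 8.71 in pairs 1 and 3 and 7.89 and 7.90 in pair 2, so levels are compared within a pair. Of 9 listed neuron markers, Snap25, Rbfox3 and Slc17a7 had 11.04 to 14.48 on their brightest probe sets over the 6 arrays, and the levels of the others are not given here. The activity genes Arc, Egr1, Fos and Nr4a1 were higher in all 3 pairs, by 1.00 to 2.78 on average. Pair 1 had the widest spread, with an SD of the log2 ratios of 0.475 over all probe sets, against 0.247 and 0.230 in pairs 2 and 3. Exactly equal values on both arrays of a pair, or ties, were present in at least 1 pair for 34 of the 112 probe sets and for 47.4% of all probe sets. By pair, 15, 14 and 13 members were tied, against 16.1%, 24.1% and 25.7% of the array. A log2 ratio of 0.00 below can be such a tie.

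The cyclin and kinase genes were the starting point, and upstream sequence is shown for Ccnl1, Ccnl2, Clk1 and Clk4, which hold an element known from activity-regulated genes or its core. The windows of Clk2 and Clk3 and the first window of Clk4 hold neither. Capitals mark the cAMP response element TGACGTCA, a sequence known to be bound by CREB, or its 6-base core ACGTCA, read on both strands. The 250 bases before the RefSeq start site (GRCr8) are given 5′ to 3′ on the strand of the gene, for Ccnl1 at chr2:152507469-152507718 (minus strand), Ccnl2 at chr5:171699525-171699774 (plus), Clk1 at chr9:67453181-67453430 (minus) and the second of the Clk4 start sites at chr10:36025490-36025739 (plus).
Ccnl1: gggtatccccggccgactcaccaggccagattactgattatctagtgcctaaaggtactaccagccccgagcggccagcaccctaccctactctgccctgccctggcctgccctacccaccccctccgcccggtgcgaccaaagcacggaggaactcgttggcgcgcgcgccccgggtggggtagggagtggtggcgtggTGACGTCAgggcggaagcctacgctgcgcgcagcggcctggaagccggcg
Ccnl2: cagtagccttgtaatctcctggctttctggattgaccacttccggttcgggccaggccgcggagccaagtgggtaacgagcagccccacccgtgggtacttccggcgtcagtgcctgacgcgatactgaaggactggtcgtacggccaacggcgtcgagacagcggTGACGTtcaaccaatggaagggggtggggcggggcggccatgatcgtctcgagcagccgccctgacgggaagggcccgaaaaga
Clk1: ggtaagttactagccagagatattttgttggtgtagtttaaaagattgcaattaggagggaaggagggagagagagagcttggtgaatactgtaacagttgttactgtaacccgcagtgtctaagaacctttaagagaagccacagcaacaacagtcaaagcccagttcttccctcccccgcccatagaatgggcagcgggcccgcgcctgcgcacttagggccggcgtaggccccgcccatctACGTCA
Clk4: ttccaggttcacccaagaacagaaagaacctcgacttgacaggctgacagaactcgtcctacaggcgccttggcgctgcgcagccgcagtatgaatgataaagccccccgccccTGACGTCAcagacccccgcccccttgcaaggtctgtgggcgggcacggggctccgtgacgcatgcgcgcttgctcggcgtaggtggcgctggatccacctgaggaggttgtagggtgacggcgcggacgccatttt

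The full element began at position -50 from the start site of Ccnl1 and at -136 from that of Clk4, and these were the only member genes that held it, 2 of 55 windows of 49 genes. Of the windows of all genes named on the array 2.5% held it, and of all 33469 windows 1.59%. The core, which is part of the full element, was present in the windows of 13 member genes (23.6% of their windows), against 9.51% of the windows of all genes on the array. Besides the 4 genes shown these were Srsf1, Srsf3, Srsf5, Srsf6, Srsf11, Tra2b, Hnrnpa2b1, Hnrnpa3 and Hnrnpdl. The CArG box, bound by SRF, was present in 1 member gene, Hnrnpd, and in 1.34% of the windows on the array. The motifs were chosen after the ratios were known, and a match of letters is no measured binding site. Of the genes with the full element, Ccnl1 was higher and Clk4 lower in gabazine samples, by the values that follow.

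Ccnl1, a cyclin of RNA splicing, stood apart from the other genes. Its only probe set had log2 intensities of 12.12, 11.64 and 12.80 in the gabazine samples of pairs 1, 2 and 3, against 11.23, 10.83 and 11.82 in their controls. The treated culture was higher in each pair by almost the same step, although the groups overlap when pairing is ignored, since the lowest gabazine value lies under the highest control value. The mean log2 ratio was 0.89 ± 0.08 (SD, n = 3), or 1.85-fold. By mean ratio it was number 143 of the 31099 probe sets of the array. It was also 1 of 47 probe sets (0.151%) with a log2 ratio of at least 0.8 in each pair, a limit set after its values were seen. Its paralog Ccnl2 had no such step on its brightest probe set, which read 12.13, 11.23 and 12.24 in gabazine samples and 12.19, 11.31 and 12.31 in controls. That is a mean log2 ratio of -0.07 ± 0.01 (SD, n = 3). Of the other Ccnl2 probe sets, 2 reached 0.89 and 1.02 in pair 1 but lay between -0.04 and 0.13 in pairs 2 and 3, and the dimmest had 0.00 to 0.05.

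The 4 Clk kinases, with 1 probe set each, did not move together. Clk1 had 12.57, 11.95 and 12.75 in the gabazine samples and 12.55, 11.65 and 12.46 in the controls, for log2 ratios of 0.02, 0.30 and 0.30. It was higher in each pair, but hardly so in pair 1, and its mean was 0.21 (standard error 0.09), or 1.15-fold. Clk4 had 10.52, 10.15 and 11.35 in the gabazine samples and 10.89, 10.22 and 11.54 in the controls. It was lower in each pair, with a mean of -0.21 (standard error 0.09), opposite in sign to Clk1. Without pair 1 the means were 0.30 for Clk1 and -0.13 for Clk4. Clk2 and Clk3 had a log2 ratio of 0.10 in pairs 1 and 3 and were slightly lower in pair 2, at -0.03 and -0.08.

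**Figure D1:**
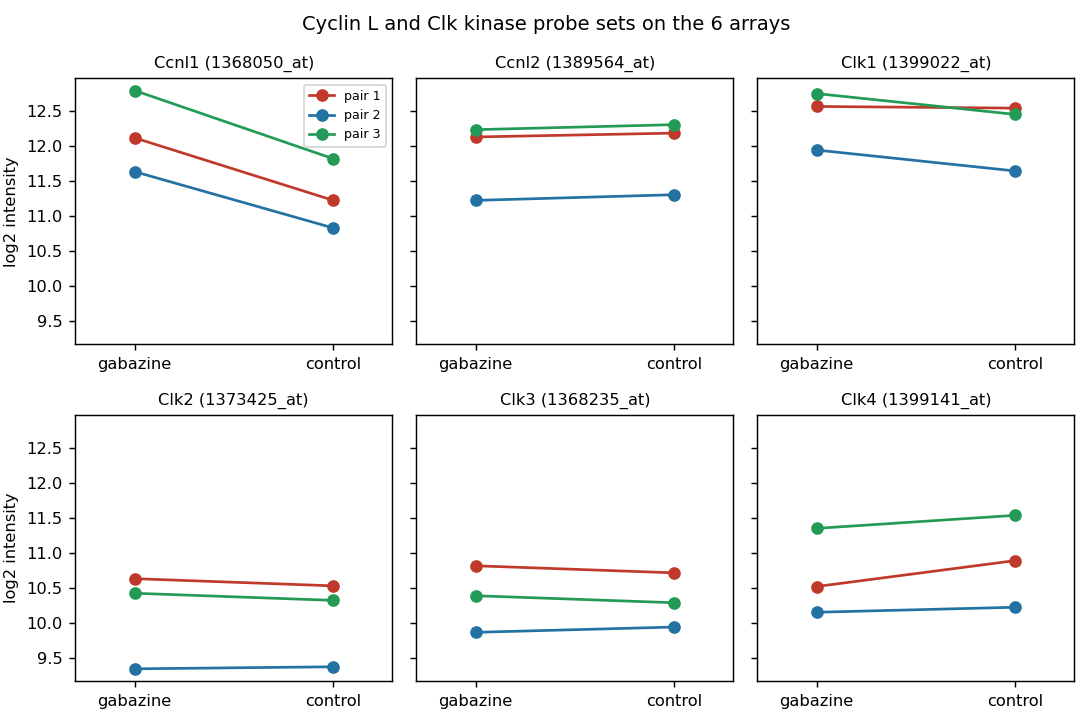
Log2 intensity of the brightest probe set of Ccnl1, Ccnl2 and the 4 Clk genes, gabazine left and control right, with 1 line per pair of arrays. The 3 lines of Ccnl1 drop by nearly the same amount between the gabazine and the control array (0.80 to 0.97), while those of Clk4 climb and those of Ccnl2 are almost flat.

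Over all 112 probe sets, 12 were higher in all 3 pairs, or 10.7%, and 7 were lower in all 3, or 6.25%. The array as a whole had 6.92% higher and 9.49% lower by the same rule. This balance depends on the scaling: with each array centred on its median, 16.1% of the members and 14.9% of the array were higher, and after cyclic loess 15.2% and 17%. The median of the mean log2 ratios was 0.03 for the members and 0.00 for the array. With the brightest probe set of each gene, 4 of 56 genes were higher in all 3 pairs (Ccnl1, Clk1, Celf2 and Hnrnpul1), against 7.79% of the genes of the array, and the median was -0.00. Lower in all 3 pairs on that probe set were 5 genes (Ccnl2, Clk4, Elavl3, Khdrbs1 and Rbfox2), against 10.8%. Other genes entered the first count only through a dimmer probe set, and Ccnl2 is in both counts, as a dimmer probe set of it was higher at 0.89, 0.06 and 0.06. With a mean of at least 0.4 in size as well, 2 members (Ccnl1 and Hnrnpa2b1) were higher and 1 (Hnrnpa1) was lower, against 1.38% and 1.28% of the array. Limma with the pair as a block called 0 of the 112 at an adjusted p under 0.05, and it called 0% of the probe sets of the array in either direction. At an unadjusted p under 0.05 it gave 2 members higher and 1 lower (1.79% and 0.893%), against 1.84% and 2.68% of the array. These were Ccnl1, Hnrnpul1 and Srsf6, and as the comparison served to choose the families nothing is read from these shares.

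**Figure D2:**
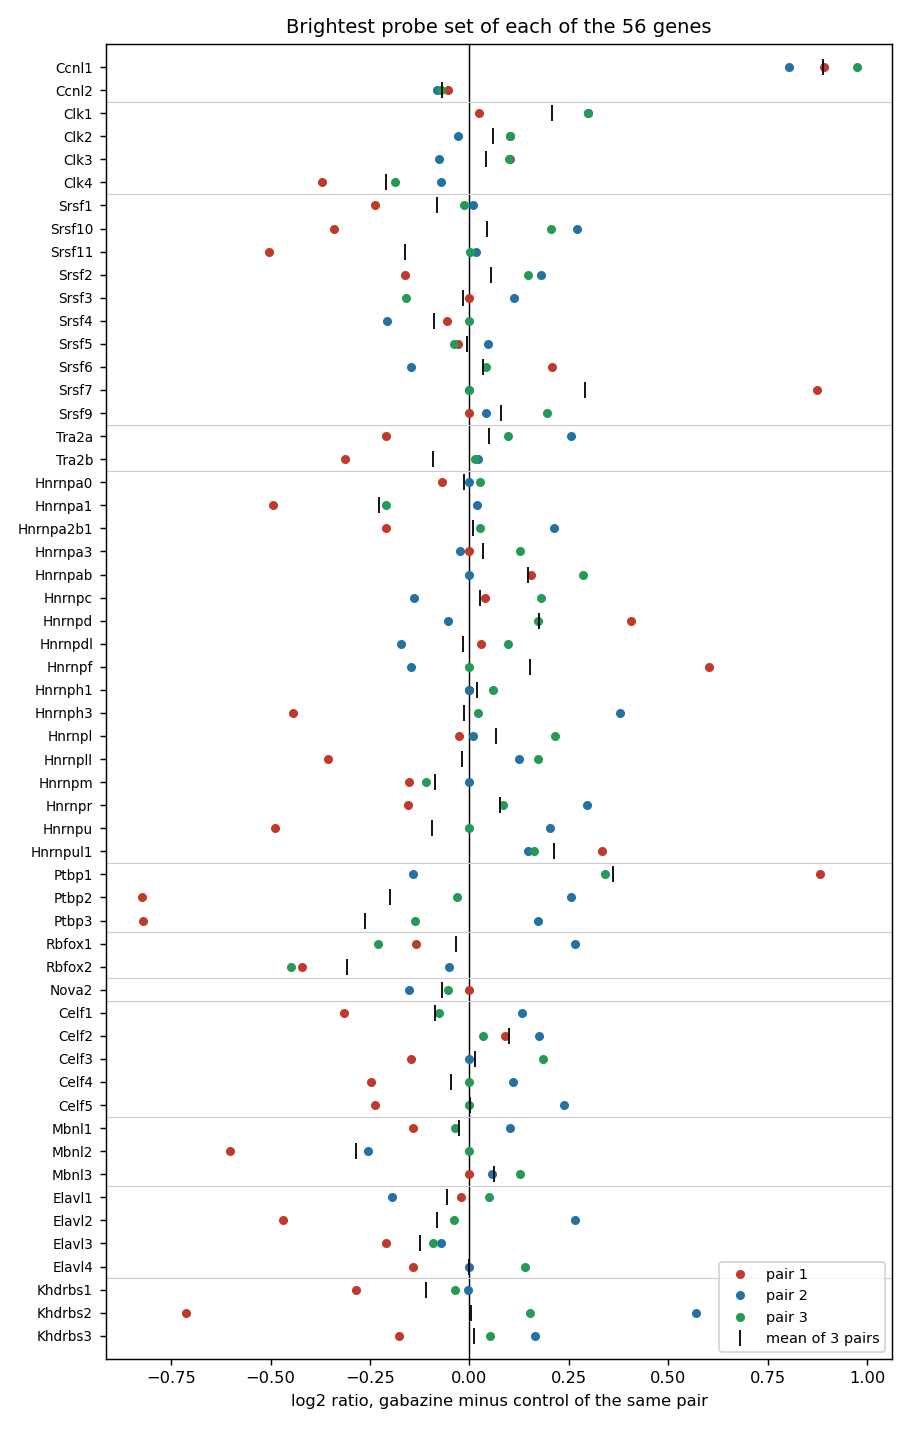
Gabazine minus control (log2) for each of the 56 genes, read on its brightest probe set and grouped by family, with 1 point per pair and a bar at the mean of the 3 pairs. Ccnl1 is the gene with all points near 0.9, the other means lie between -0.31 and 0.36, and the points of pair 1 (red) lie farthest from 0 for many genes.

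The Srsf proteins bind exonic enhancers and are substrates of the Clk kinases. Of 19 probe sets of 10 Srsf genes, 0 were higher and 1 was lower in every pair, with means from -0.25 to 0.29. Of all probe sets of the array 6.92% were higher and 9.49% lower, so with 19 probe sets nothing is read from these counts. The lower one belongs to Srsf6, at -0.39, -0.11 and -0.23 in pairs 1, 2 and 3. The brightest Srsf6 probe set had 0.21, -0.15 and 0.04, so the probe sets of this gene did not move alike. Srsf5 stood at a mean of -0.01, with 13.07, 12.47 and 13.14 in gabazine samples and 13.09, 12.42 and 13.18 in controls. Srsf2, known for its place in nuclear speckles, had log2 ratios of -0.16, 0.18 and 0.15 on its brighter probe set. Srsf7 had the highest mean of the family, 0.29, made by 0.87 in pair 1 and ties in both other pairs. Srsf11 had the lowest mean among the brightest probe sets, -0.16, made by -0.50 in pair 1, and Srsf4, the lowest when the probe sets of a gene are averaged, had -0.06, -0.21 and 0.00. Srsf1, the founding member of the family, had means of -0.08 and 0.05 on its probe sets, and Srsf9 had 0.08. For Srsf3 only 1 probe set carries a single symbol, at a mean of -0.02, and 2 others were left out because their annotation also names another gene.

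Tra2a and Tra2b, which bind enhancers rich in purines, differed little on their brightest probe sets, with means of 0.05 and -0.09. The second Tra2b probe set was higher in each pair, at 0.46, 0.07 and 0.14. The second Tra2a probe set had 9.31, 7.36 and 7.29 in the gabazine samples, against 6.64, 7.39 and 7.39 in the controls. Its mean of 0.85 (standard error 0.91) rests on pair 1, where the gabazine array was higher and the control array lower than in the other pairs. Without pair 1 the mean was -0.06.

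The hnRNPs coat nascent transcripts, and 31 probe sets of 17 genes stood for them. In every pair 4 of these were higher and 1 lower, against 6.92% and 9.49% of the array, and the median of the family was 0.03. Hnrnpa2b1, which also carries mRNA into dendrites, had the highest mean of all 112 probe sets on its dimmest one. That probe set had 11.54, 8.53 and 8.92 in the gabazine samples and 8.94, 8.20 and 8.88 in the controls, and thus log2 ratios of 2.61, 0.33 and 0.04. Its mean of 0.99 (standard error 0.81) becomes 0.19 without pair 1. The brightest Hnrnpa2b1 probe set had -0.21, 0.21 and 0.03. Hnrnpul1 was higher in each pair, most in pair 1, at 0.33, 0.15 and 0.16, with a mean of 0.21 (standard error 0.06). The probe sets of Hnrnpa3 and Hnrnpdl that were higher in all 3 pairs had means of 0.06 and 0.16.
Hnrnpa1, a repressor of exon inclusion, had the lowest mean of all members on 1 of its 3 probe sets. It read 9.29, 11.32 and 12.28 in the gabazine samples and 10.27, 11.67 and 12.38 in the controls, for log2 ratios of -0.98, -0.35 and -0.11. Its mean was -0.48 (standard error 0.26), and -0.23 without pair 1. The other Hnrnpa1 probe sets had -0.49, 0.02 and -0.21 and a mean of 0.01, and near-identical copies of this gene could share their signal. Hnrnpd, which binds AU-rich elements and favours mRNA decay, had 0.41, -0.05 and 0.17. Hnrnpf had 0.60, -0.15 and 0.00, and Hnrnph1, which like Hnrnpf binds runs of G, had 0.00, 0.00 and 0.06. Hnrnpu, a large nuclear scaffold protein, had means of -0.10, 0.07 and 0.27 on its 3 probe sets. Hnrnpc, which binds runs of U, stood at 0.03 and Hnrnpl, which binds CA repeats, at 0.07. The remaining members (Hnrnpa0, Hnrnpab, Hnrnph3, Hnrnpll, Hnrnpm and Hnrnpr) had means between -0.09 and 0.15, and Hnrnpk was left out because its probe sets carry 2 symbols.

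The polypyrimidine tract binding proteins parted in pair 1. Ptbp1, which neurons switch off as they mature, had log2 ratios of 0.88, -0.14 and 0.34, and Ptbp2, its neuronal paralog, had -0.82, 0.25 and -0.03. Ptbp3 had -0.82, 0.17 and -0.14 on its brighter probe set and a mean of 0.06 on the other. In pair 2 the signs of Ptbp1 and Ptbp2 were the reverse of those in pair 1, so the direction was not shared by the pairs.

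Rbfox2, which binds UGCAUG beside the exons it regulates, was lower in each pair on its brighter probe set. It had 10.55, 11.08 and 10.44 in the gabazine samples and 10.97, 11.13 and 10.88 in the controls, for log2 ratios of -0.42, -0.05 and -0.45. Its mean was -0.31 (standard error 0.13), the lowest among the brightest probe sets, and pair 2 was close to 0. The other Rbfox2 probe set was tied in pairs 1 and 2 and had -0.24 in pair 3. Rbfox3, left out of the members by the rule, had -0.01, 0.31 and -0.01 on its brighter probe set and -0.74, 0.25 and 0.22 on the other. Rbfox1, the paralog found in neurons and muscle, had 6 probe sets with means from -0.23 to 0.19. The lowest of these had -0.76, 0.32 and -0.25. On its brightest it had -0.13, 0.26 and -0.23, and its dimmest was tied in all 3 pairs, as 2.71% of the array was. Nova2, a splicing factor of neurons known from paraneoplastic disease, was low on both probe sets (4.45 to 6.26 over the 6 arrays) with means of -0.07 and -0.09, and 1 of them is of the kind that can read several genes.

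Celf2 was higher in each pair on its 2 brightest probe sets, by small steps of 0.09, 0.17 and 0.03 and of 0.20, 0.23 and 0.06. Its other probe sets did not share this, with 1.59, -0.31 and -0.06 on 1 and -0.05, 0.16 and -0.03 on the dimmest. Celf1, which binds GU-rich RNA, had means of -0.09, -0.06 and -0.03 on its 3 brighter probe sets and 0.25 and 0.51 on the dimmer ones, again with 0.89 and 1.09 in pair 1. The highest of these had 1.09, 0.00 and 0.43. Celf4, the lowest of the family when the probe sets of a gene are averaged, had -0.25, 0.11 and 0.00, and Celf3 and Celf5 had means between -0.04 and 0.01.
Mbnl1 and Mbnl2 are the muscleblind proteins that CUG repeats sequester in myotonic dystrophy. Mbnl1 had means of -0.03, 0.05, 0.36 and 0.03 from its brightest to its dimmest probe set, and the one at 0.36 was higher in each pair, at 0.98, 0.07 and 0.02. Mbnl2 had -0.60, -0.26 and 0.00 on its brightest probe set. Its dimmest had 10.65, 6.88 and 8.33 in the gabazine samples and 7.68, 7.39 and 8.24 in the controls, which is 2.97 in pair 1 and -0.51 in pair 2. Mbnl3 was low, between 3.71 and 4.63 on the 6 arrays, with log2 ratios of 0.00, 0.06 and 0.13.

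The Elavl proteins stabilise mRNAs with AU-rich elements, Elavl1 in all tissues and Elavl2, Elavl3 and Elavl4 mainly in neurons. Elavl3 was lower in each pair on its brighter probe set, at -0.21, -0.07 and -0.09, with a mean of -0.13 (standard error 0.04). Its other probe set, of nearly the same level, was not, at -0.25, 0.02 and -0.00. Elavl4 had -0.14, 0.00 and 0.14, and the brightest probe set of Elavl2 had -0.47, 0.27 and -0.04. Elavl1 had means of -0.06, -0.21 and 0.01 on its 3 probe sets, the lowest from -0.79, 0.18 and -0.00. The dimmest Elavl2 probe set had 1.07, 0.02 and 0.00. Khdrbs1, also known as Sam68, had -0.28, -0.00 and -0.04 on its brighter probe set and 0.71, -0.09 and -0.00 on the other. Khdrbs2 had -0.71, 0.57 and 0.15, and Khdrbs3 had -0.18, 0.16 and 0.05, so each of them had opposite signs in pairs 1 and 2.

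Large ratios in the families were thus mostly those of dimmer probe sets in pair 1. A log2 ratio of at least 1 was reached by 8 of the 112 in pair 1 (7.14%, against 4.07% of the array) and by 0 in pairs 2 and 3, where the array had 0.685% and 0.318%. A log2 ratio of -1 or less was reached by 0 members in pair 1, against 1.11% of the array, and by 0 in pairs 2 and 3 (0.199% and 0.148%). Of 27 member genes with more than 1 probe set, the dimmest had a higher ratio than the brightest in 20 (pair 1), 12 (pair 2) and 17 (pair 3). In pair 2 that is 44.4%, against 43.2% of all such genes, and in pair 3 it is 63%, against 47.2%. The median of dimmest minus brightest was 0.42, -0.08 and 0.04. For all 4526 such genes of the array the dimmest was the higher in 74.6% in pair 1, beside 74.1% of the member genes, and the median difference was 0.35. In pair 1 the dimmest probe set exceeded the brightest by at least 1 in 5 member genes (18.5%) and in 18.6% of all genes. The spread between probe sets of a gene in pair 1 was thus of the size seen across the array. Over all 112 probe sets the SD of the log2 ratios was 0.643 in pair 1, against 0.475 for the array. In pairs 2 and 3 it was 0.220 and 0.169, against 0.247 and 0.230. Where in a transcript each probe set lies was not analysed here.
Other values of pair 1 stood apart as well. The array's 5′ and 3′ probe sets for beta-actin, Gapdh and hexokinase had log2 ratios that were higher at the 5′ end by 1.70, 0.50 and 0.38 in pair 1, and by -0.25 to 0.10 in pairs 2 and 3. Of 6 choroid plexus markers 3 were higher and 0 lower in all 3 pairs, with medians of 0.64, 0.10 and 0.07 in pairs 1, 2 and 3, led by Ttr with 4.59 in pair 1. Their summed linear intensity was 13600.5, 5378 and 4139 in the gabazine samples of pairs 1, 2 and 3, against 4292, 4440 and 5004 in their controls. The sum was thus lower with gabazine in pair 3. In all 3 pairs, 1 of 9 neuron, 1 of 7 interneuron, 2 of 7 astrocyte, 2 of 6 oligodendrocyte and 1 of 6 microglia markers were higher, and 1 astrocyte, 2 microglia and 1 of 8 vascular markers were lower. Of all genes on the array 7.79% were higher and 10.8% lower by this rule. Neuron markers reached 2.53 in pair 1 and 1.26 in pair 2. Interneuron markers reached 1.73 in pair 1, and astrocyte markers 2.15 in pair 2. The lowest ratios were -1.18 (microglia, pair 1) and -1.24 (vascular, pair 2). The medians of the neuron markers were -0.01, 0.31 and -0.01 in pairs 1, 2 and 3. The part of RNA quality or of choroid plexus tissue in the ratios of the splicing genes was not tested.

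**Figure D3:**
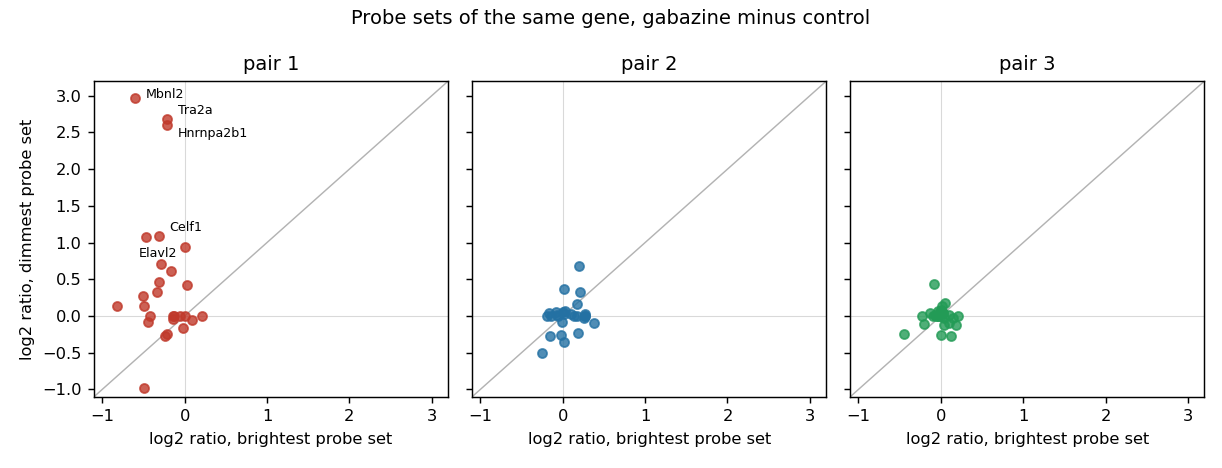
Gabazine minus control (log2) for the dimmest (vertical) against the brightest (horizontal) probe set of the 27 genes with more than 1 probe set, 1 panel per pair, with a grey line where both are equal. In pair 1 Mbnl2, Tra2a, Hnrnpa2b1, Celf1 and Elavl2 lie at least 1 above the line, and in pairs 2 and 3 no gene does.

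The level of some members differed between replicas more than between conditions, a measure that the choice of the families did not use. With each array centred on its median, 5 of 112 probe sets (4.46%) were at least 1.5 lower on both arrays of pair 1 than on the arrays of the same condition in pairs 2 and 3. This held for 1.29% of all probe sets, and the limit was set after the values were seen. The reverse, at least 1.5 higher in pair 1, held for 0 members and 0.142% of the array. An Elavl1 probe set had 7.40, 9.55 and 11.22 in the gabazine samples and 7.56, 9.55 and 11.03 in the controls. A Srsf10 probe set had 5.87, 7.68 and 8.73 in the gabazine samples and 5.67, 7.72 and 8.73 in the controls. In both, the arrays of a pair differed by at most 0.20 and the pairs were far apart. Srsf10, an SR protein that turns into a repressor when dephosphorylated, had no such gap on its brightest probe set, with 10.32, 10.27 and 11.07 in gabazine samples and 10.66, 10.00 and 10.87 in controls. The single Srsf3 probe set had 5.44, 7.46 and 8.14 in the gabazine samples and 5.44, 7.35 and 8.30 in the controls. The other 2 are the Hnrnpa1 probe set with the lowest mean ratio and the second probe set of Mbnl2. Summed over 6 microglia markers, the linear intensity was 20663 in the gabazine sample of pair 1 and 7499 and 7764 in those of pairs 3 and 2, and 21740 in the control of pair 1 and 6491 and 7615 in those of pairs 3 and 2. These sums are not centred, and the lower array medians of pair 2 add to its distance from pair 1. The part of cell composition in these gaps was not tested.

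**Figure D4:**
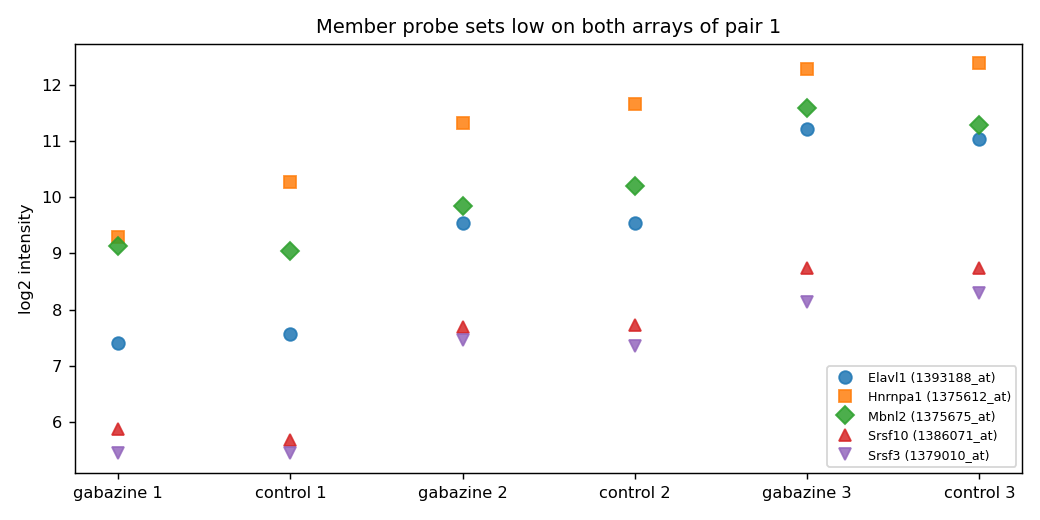
Log2 intensity on the 6 arrays, gabazine before control in each pair, of the 5 member probe sets that were at least 1.5 lower on both arrays of pair 1 after centring. The uncentred values are shown, and the Elavl1 probe set spans 7.40 to 11.22 while the arrays of a pair differ by at most 0.18.

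Beyond these families, 117 other genes of the splicing machinery were listed, from core snRNP proteins to SR protein kinases, and read on their brightest probe sets. In every pair 11 were higher and 10 lower, with a median of -0.02, against 7.79% and 10.8% of all genes on the array, and limma called 0 probe sets of the array. Prpf19, a ubiquitin ligase of the spliceosome, was higher at 0.41, 0.23 and 0.31 in pairs 1, 2 and 3. Rbm14, a coactivator tied to paraspeckles, had 0.08, 0.15 and 0.68. Rbms1, a protein that binds single strands of nucleic acid, was lower at -0.75, -0.66 and -0.10, and Tia1, which promotes the use of weak 5′ splice sites, at -0.48, -0.04 and -0.94. Dimmer probe sets of Rbm5, a regulator of apoptosis-related splicing, and of the spliceosomal kinase Prpf4b were lower in each pair, with means of -0.79 and -0.50, and one of Tardbp was higher, with 1.42, 0.01 and 0.11. This Prpf4b probe set had -1.24, -0.01 and -0.25 in pairs 1, 2 and 3, and the others of the gene had means from -0.34 to 0.04. No gene of this list on its brightest probe set had a mean as high as Ccnl1, and the highest was that of Ddx17, a helicase, at 0.49 with 1.46 in pair 1 and 0.00 and 0.02 in the other pairs.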

How the data were processed

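RNA of 3 gabazine and 3 control samples was hybridised to 6 arrays. The authors made the deposited log2 intensities with RMA. Its version, and whether the replicas were normalized together, are not given in the sources used here. No scaling was added to these deposited log2 values, 0 columns were left out, and precision is limited by the small number of arrays. The annotation names 20832 probe sets with 1 symbol and 436 with several, which were not named, and 9831 are unnamed. Updating the symbols through RefSeq left the 112 members as they were. Promoter windows are those of RefSeq (GRCr8).

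All probe sets were fitted with limma 3.58.1 (R 4.3.3) with the replica as a block (2 residual degrees of freedom) and Benjamini-Hochberg adjustment at 0.05. The pairing follows the series' design, and arrays of a pair deviated together from the group means (r = 0.794, 0.664 and 0.853). The code of the fit was tried on simulated data with the same spread for all probe sets and pairs and no ties. As these arrays have ties and a wider pair 1, that trial does not show how the fit behaves on them. The members, lists and rules were chosen with earlier results of these data known. Named with their ratios are, in each family, the genes with the highest and lowest mean, the 10 highest and 10 lowest probe sets, and those of 1 sign with a mean of at least 0.4 in size. Other members are named for completeness. Of the other splicing genes, Ddx17 and those with a mean under 0.4 in size were chosen after their values were seen. The alternatives were no block, each pair left out, 3 other scalings, the 40% dimmest probe sets or the tied ones left out, another variance model and 1 probe set a gene.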

Additional observations from a re-analysis of the deposited data

How the results depend on the processing

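Limma called 0 probe sets of the array in all settings but 1, the fit with no replicate block, which called 14, all higher (unadjusted, 83 higher and 1 lower). The pairing changed no other call. Member probe sets higher in all pairs kept to 12 within 1.5 times except with 1 probe set a gene (4, of 56), and with a pair left out the count over the remaining pairs was 15 to 33 (33, 30 and 15 without pairs 1, 2 and 3). Those lower numbered 7, 18 after quantile normalization (with 14 higher), 12 after cyclic loess (with 17 higher) and 13 to 27 with a pair left out (27 without pair 2). The split of the array moved with the scaling too: 10.8% higher and 16.8% lower after quantile normalization (members 12.5% and 16.1%), 17% and 12.1% after cyclic loess (members 15.2% and 10.7%) and 14.9% and 10.2% after centring (members 16.1% and 6.25%). The median of the members was 0.0279, and 0.0133 with each array centred on its median, 0.0391 after cyclic loess, 0.0141 without the dimmest probe sets, -0.0037 with 1 probe set a gene and 0 to 0.0311 with a pair left out. Ccnl1 had a mean of 0.875 to 0.914 under the other scalings and 0.85 to 0.93 with a pair left out. The causes were not tested.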
